A study of Mus musculus with 18 samples.

Results

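The DNA replication machinery is described here through 43 mouse genes, chosen by symbol as the proteins that mark origins, load and start the replicative helicase, copy both strands, join the fragments and make the nucleotides. All 43 were found by Entrez identifier among the 27179 genes of the files, and all 43 passed the filter on low counts, which kept 17989 genes. RNA was sequenced from 18 libraries of FACS-sorted cells of untreated C57BL/6 mice, males of 8 to 12 weeks by the study's methods, in 6 populations of 3 libraries. The tracheal pair (BSCs, the basal stem cells, sorted as NGFR positive, and non-basal cells, NGFR negative) came from the tracheas of mice 1 to 3. The other 4 came from the lungs of mice 4 to 6: airway luminal CD24hi cells (EpCAM positive, CD104 positive, by label enriched in ciliated cells), airway luminal CD24lo cells (the same gate with low CD24, by label enriched in club cells), EpCAM-negative cells (non-epithelial) and alveolar cells (EpCAM positive, CD104 low). By the study's methods, lung cells were also stained for CD45 and CD31, and alveolar cells were those negative for both. Each population is a gate and not a pure cell type. By the study's methods tracheas were digested with dispase and trypsin, and lungs with collagenase. Tracheal and lung populations thus differ in animal, dissociation and sequencing depth as well as in cell type. These cannot be told apart in comparisons between the organs.

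Origins are licensed in G1, when the origin recognition complex together with CDC6 and CDT1 loads the MCM2-7 helicase on DNA. In S phase CDC45 and the GINS complex join the helicase, polymerase alpha and primase start each strand, and polymerases delta and epsilon extend it with the sliding clamp PCNA, which replication factor C loads. Geminin binds CDT1 and blocks a further round of loading, and many of these genes are targets of the E2F transcription factors. In the adult airway and alveoli most cells are at rest, basal cells are the dividing progenitors of the trachea, and ciliated cells have left the cell cycle.

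The reads counted on genes were 29317215 to 32993621 in the tracheal libraries and 9811503 to 13208897 in the lung libraries. Markers of the labelled types followed the labels. Summed over each list, 5 basal markers were at 3953 to 4359 RPKM (read counts divided by gene length and by the TMM-scaled library size) in BSCs and 1145 to 1523 RPKM in non-basal cells. The 4 ciliated markers were at 1138 to 1274 RPKM in CD24hi and 95.9 to 214 RPKM in CD24lo cells, 3 club markers were at 72535 to 95286 and 490208 to 690882 RPKM in the same cells, and 4 alveolar type 2 markers were at 160924 to 180699 RPKM in alveolar and 4016 to 6921 RPKM in CD24lo cells. The EpCAM-negative cells held 4 fibroblast markers at 5238 to 5442 RPKM and 3 endothelial markers at 84.6 to 133 RPKM. The endothelial markers were as high in CD24lo cells (82.1 to 165 RPKM), and 1 of them, Cdh5, had no read in any BSC library. The 5 leukocyte markers were at 9.50 to 29.4 RPKM over all libraries. In 5 populations 1 library stood apart from the other pair over all genes: replicate 1 of BSCs, non-basal, CD24hi and CD24lo cells, and replicate 2 of alveolar cells. In BSCs the library of mouse 1 was the highest of the 3 for 40 of the 43 members, as against 40.6% of all genes tested, and in non-basal cells, which share their mice with the BSCs, it was so for 30 members, as against 39.2% of all genes.

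The promoters of 6 members are shown, of which 3 encode MCM subunits and the others CDC6, ORC1 and the sliding clamp. Of these windows 5 hold the E2F motif and that of Pcna holds none. The windows run from 250 bases before to 50 bases after the RefSeq start in GRCm38.p6, 5′ to 3′ on the gene's strand. Capitals mark an E2F match (TTTCCCGC, TTTGGCGC, TTTGCCGC or TTTCGCGC, either strand) or a CCAAT match (CCAAT, either strand), and a run longer than 8 capitals holds E2F matches that overlap.
Mcm3 (chr1:20820263-20820562, minus strand): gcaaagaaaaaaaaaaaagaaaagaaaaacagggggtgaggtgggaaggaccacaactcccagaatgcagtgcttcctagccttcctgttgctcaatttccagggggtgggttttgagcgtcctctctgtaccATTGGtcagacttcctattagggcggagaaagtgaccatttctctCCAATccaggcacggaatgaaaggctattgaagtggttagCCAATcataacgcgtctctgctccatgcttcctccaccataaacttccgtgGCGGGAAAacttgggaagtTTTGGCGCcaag
Mcm5 (chr8:75109259-75109558, plus strand): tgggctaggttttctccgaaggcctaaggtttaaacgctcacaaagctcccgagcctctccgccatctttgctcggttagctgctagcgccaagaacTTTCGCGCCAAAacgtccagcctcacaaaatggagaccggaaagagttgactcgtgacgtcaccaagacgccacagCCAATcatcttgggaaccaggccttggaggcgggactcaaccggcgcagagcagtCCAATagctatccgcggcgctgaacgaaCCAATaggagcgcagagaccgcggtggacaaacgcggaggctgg
Mcm6 (chr1:128359656-128359955, minus strand): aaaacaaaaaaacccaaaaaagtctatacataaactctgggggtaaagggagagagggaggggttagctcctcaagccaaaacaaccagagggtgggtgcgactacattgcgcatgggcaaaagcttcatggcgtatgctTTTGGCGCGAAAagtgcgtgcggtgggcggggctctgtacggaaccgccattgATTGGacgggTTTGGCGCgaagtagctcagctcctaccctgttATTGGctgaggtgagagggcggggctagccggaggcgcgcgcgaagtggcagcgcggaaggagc
Cdc6 (chr11:98907901-98908200, plus strand): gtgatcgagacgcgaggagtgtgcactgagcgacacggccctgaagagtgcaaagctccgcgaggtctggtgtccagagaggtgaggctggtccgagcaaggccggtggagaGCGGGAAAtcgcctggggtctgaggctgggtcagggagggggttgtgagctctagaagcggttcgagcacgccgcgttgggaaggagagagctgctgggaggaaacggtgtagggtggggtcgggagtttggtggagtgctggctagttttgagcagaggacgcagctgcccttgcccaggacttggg
Orc1 (chr4:108579204-108579503, plus strand): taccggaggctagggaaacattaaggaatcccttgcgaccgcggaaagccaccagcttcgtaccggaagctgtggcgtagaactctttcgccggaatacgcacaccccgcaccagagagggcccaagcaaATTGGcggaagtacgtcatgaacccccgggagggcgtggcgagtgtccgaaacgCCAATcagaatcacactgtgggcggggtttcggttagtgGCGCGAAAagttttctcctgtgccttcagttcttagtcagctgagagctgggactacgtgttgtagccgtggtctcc
Pcna (chr2:132253131-132253430, minus strand): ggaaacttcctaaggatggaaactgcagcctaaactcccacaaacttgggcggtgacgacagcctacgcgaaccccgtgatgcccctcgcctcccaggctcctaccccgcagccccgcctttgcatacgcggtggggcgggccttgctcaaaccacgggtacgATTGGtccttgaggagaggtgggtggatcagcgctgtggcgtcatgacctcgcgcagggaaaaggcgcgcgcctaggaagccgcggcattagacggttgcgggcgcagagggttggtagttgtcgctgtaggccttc

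The table held 43 windows of 35 members and none was matched for Gins1, Gins2, Gins4, Gmnn, Mcm4, Pole, Prim2 and Rfc2. An E2F match lay in 14 of these windows (32.6%), each of another gene, as against 2.26% of all 32851 windows of the same length, and a CCAAT match lay in 58.1% as against 37.4%. The 14 genes with an E2F match were Orc1, Orc3, Cdc6, Cdt1, Mcm3, Mcm5, Mcm6, Mcm7, Gins3, Pola1, Pole2, Pold1, Rfc3 and Lig1. In the comparisons given further on, 11 of these 14 genes and 10 of the 21 genes without a match were called as higher in BSCs when alveolar cells were the reference, as were 4 of the 8 with no window (30.5% of all genes tested). Against non-basal cells the counts were 11 of 14, 13 of 21 and 4 of 8 (21.9% of all genes tested). A match is a string of letters and was not tested as a binding site.

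**Figure D1:**
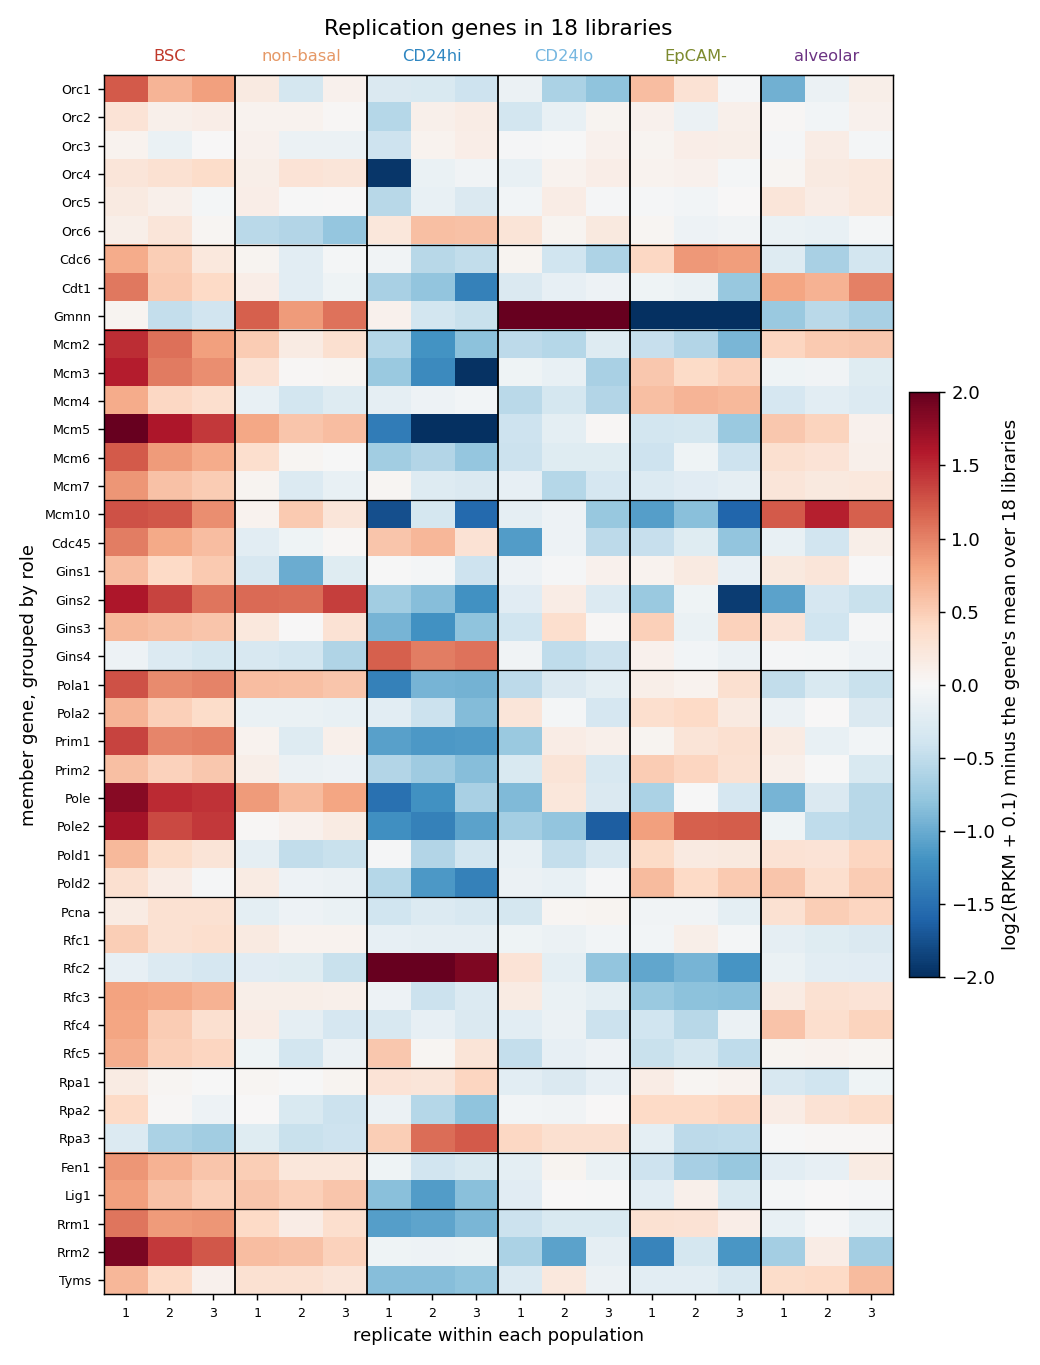
Each row is 1 of the 43 members, ordered by role, and each column is 1 of the 18 libraries. Colour gives log2(RPKM + 0.1) minus the gene's mean over the 18 libraries. The BSC columns are red for most rows, with the mouse 1 library the reddest, and the CD24hi columns are blue for most rows but red for Orc6, Gins4, Rfc2 and Rpa3. Gmnn is dark red in CD24lo cells and dark blue in EpCAM-negative cells.

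Most of the machinery was highest in BSCs. By mean RPKM, 27 of the 43 members were highest in BSCs, a population in which 17.5% of all genes tested had their highest mean, and 22 were lowest in CD24hi cells, where 20.2% of all genes had their lowest. The median over the 43 members was 6.74 ± 0.981 RPKM (mean ± SD, n = 3) in BSCs, 4.86 ± 0.437 in alveolar, 4.30 ± 0.403 in non-basal, 4.29 ± 0.139 in EpCAM-negative, 4.12 ± 0.168 in CD24lo and 2.82 ± 0.0893 RPKM in CD24hi cells. In bulk RNA, fewer cells of a kind and less RNA per cell cannot be told apart. A member was counted as standing above the rest when it was higher than in each of the other 5 populations at an adjusted p under 0.05 (edgeR). By that rule 14 members stood highest in BSCs (background over all genes 7.96%): Orc1, Mcm2, Mcm3, Mcm5, Mcm6, Mcm7, Pola1, Prim1, Pole, Rfc1, Rfc3, Fen1, Rrm1 and Rrm2. Of the others, 5 (Orc6, Gins4, Rfc2, Rpa1 and Rpa3) stood highest in CD24hi cells (background 14.6%) and 1, Gmnn, in CD24lo cells (1.28%), and 0 did so in non-basal (4.15%), EpCAM-negative (16.3%) or alveolar cells (8.06%). These counts moved with the scaling: library size alone gave 25 members for BSCs and 3 for CD24hi cells, removing the trend on gene length gave 24 and 3, and the CD24hi count was 3 without CD24hi replicate 3. With the 5 libraries that stood apart left out the BSC count was again 14, with Rfc5 in place of Orc1, while Mcm4 came to stand highest in EpCAM-negative and Cdt1 in alveolar cells.

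The first comparison set BSCs against the non-basal cells of the same tracheas. Of the 43 members, 28 were higher in BSCs (background 21.9%), 1 was lower (background 26.2%) and 14 were not called, with a median log2 fold change of 0.65 as against -0.02 over all genes tested. The 28 took in all 6 MCM2-7 subunits, 7 of the 8 primase and polymerase subunits and 5 of the 6 clamp and clamp loader subunits, but 0 of the 3 RPA subunits. The only lower member was Gmnn, which encodes geminin, the inhibitor of loading. Without the BSC library of mouse 1, 26 members were higher and 1 was lower. With the mouse as a block, 29 were higher and 1 was lower. Library size alone gave 38 higher and 1 lower, with a median of 0.99 as against 0.31 over all genes, and removing the trend on gene length gave 34 and 1, with 0.82 as against 0.15. Cdc6 lost its call without BSC replicate 1 and without non-basal replicate 2 (adjusted p = 0.0794 to 0.0996), and Fen1 did so without either of these, without non-basal replicate 3 and with thinned counts (adjusted p = 0.0824 to 0.187). Basal marker RNA was also measured in the non-basal gate, where means were 5.41 to 47.8% of the BSC means for the 5 basal markers (median 10.1%), and 36.7 to 249% for the 43 members (median 63.9%). The 3 club markers were at 9593 to 11601 RPKM in BSCs and 82843 to 92023 RPKM in non-basal cells. The 4 fibroblast markers were at 159 to 163 RPKM in BSCs and 27.8 to 42.3 RPKM in non-basal cells. Dcn gave nearly all of this sum in BSCs (159 to 163 RPKM), where Col1a1, Col1a2 and Pdgfra had 0 to 9 reads per library, as against 12 to 356 reads in non-basal cells. The part of these marker lists' cell types in the members' levels was not tested.

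Against alveolar cells, the second comparison, 25 members were higher in BSCs (background 30.5%), 1 was lower (background 35.6%) and 17 were not called, with a median log2 fold change of 0.52 as against -0.09 over all genes. Scaling by library size alone in place of TMM moved the median of all genes to 0.29 and that of the members to 0.92, so that the members lay 0.63 above all genes with this scaling and 0.61 above them with TMM. By role, 6 of 6 MCM2-7 subunits were higher, as were 6 of the 8 primase and polymerase subunits, both joining enzymes and both ribonucleotide reductase subunits, but 1 of 6 origin recognition subunits. Marker lists differed between these gates as well. The 3 endothelial markers were at 0.109 to 0.157 RPKM in BSCs and 26.0 to 51.8 RPKM in alveolar cells. In the same order, 3 smooth muscle markers were at 2.58 to 3.38 and 41.6 to 64.8 RPKM. The 4 alveolar type 1 markers were at 408 to 454 and 1526 to 1542 RPKM. The 3 club markers were at 9593 to 11601 and 3844 to 4894 RPKM. Their part in the members' levels was not tested. Thinning the tracheal counts to the depth of the lung left 25 members higher and 3 lower, and leaving out the 5 libraries that stood apart gave 25 and 5: Gins3 lost its call, as it did without alveolar replicate 2 alone (adjusted p = 0.0916), and Cdt1 (-0.46, adjusted p = 0.0449), Gins4 (-0.25, adjusted p = 0.0463), Pold2 (-0.47, adjusted p = 0.000854) and Rpa2 (-0.29, adjusted p = 0.043) were then lower, while Orc4 was higher (0.22, adjusted p = 0.0208).

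**Figure D2:**
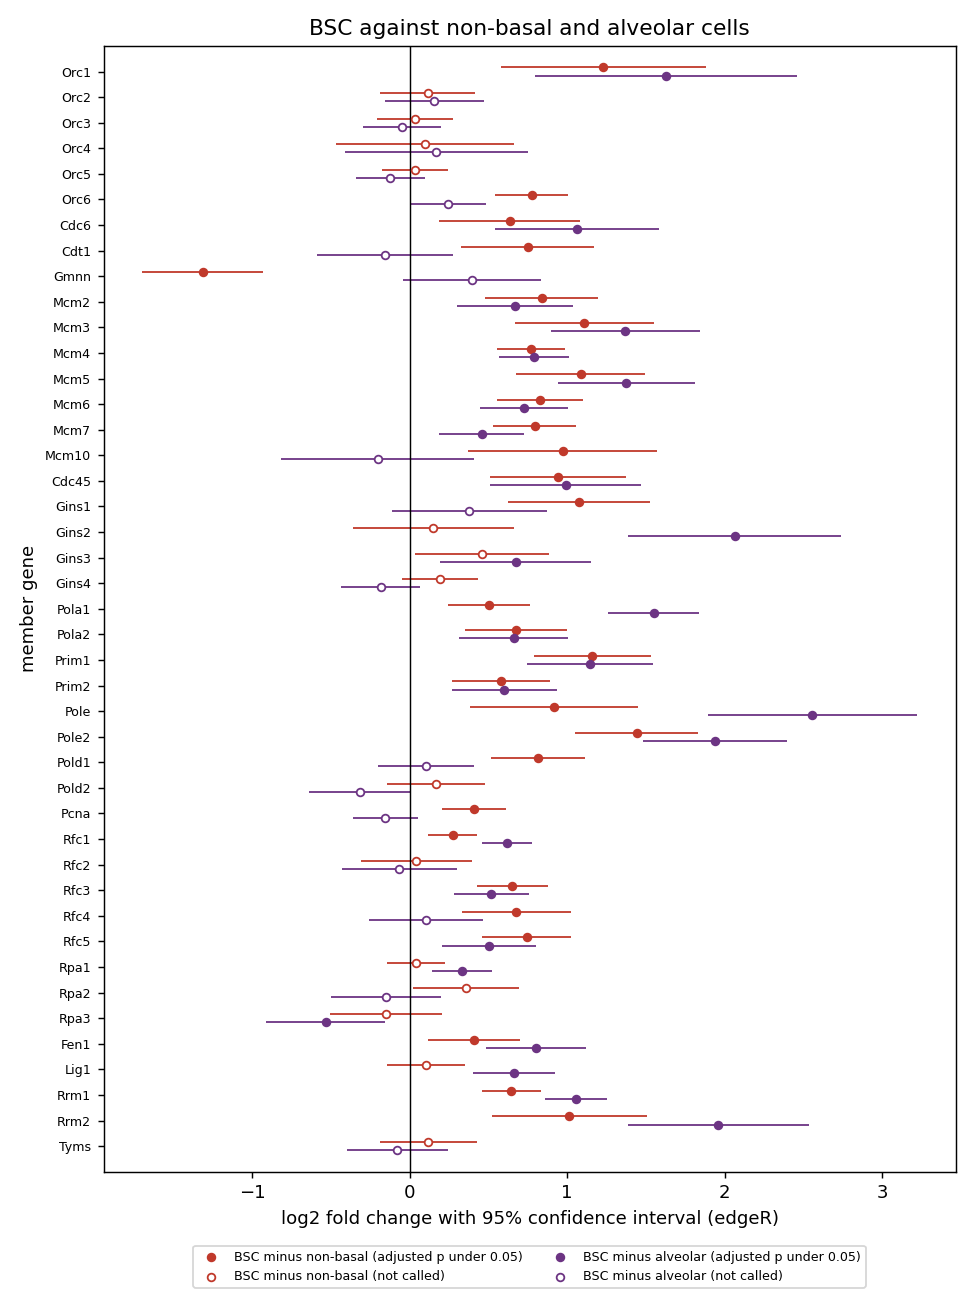
Points are edgeR log2 fold changes of the 43 members with 95% confidence intervals, for BSCs against non-basal cells (red) and against alveolar cells (purple), which share the BSC libraries. Filled points passed an adjusted p of 0.05. Gmnn is the 1 red point called below 0, Rpa3 is the 1 purple point called below 0, and Pole, Gins2, Rrm2 and Pole2 lie farthest to the right against alveolar cells.

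The origin recognition complex marks the places where the helicase is loaded, and its 6 subunits differed in how much they varied. Orc1, the subunit that is made anew in each cell cycle, was at 0.623, 0.394 and 0.440 RPKM in BSCs of mice 1 to 3, at 0.249, 0.140 and 0.227 RPKM in non-basal cells and at 0.0585, 0.183 and 0.234 RPKM in alveolar cells of mice 4 to 6. All 3 BSC libraries lay above all of these, from 66, 43 and 47 reads in BSCs and only 2, 6 and 7 in alveolar cells. The difference was 1.23 ± 0.31 (adjusted p = 0.0031) against non-basal and 1.63 ± 0.39 (adjusted p = 0.00151) against alveolar cells (differences are log2 fold changes ± SE from edgeR, here and in what follows, unless given as a fold). Orc2, Orc3 and Orc4 were called in none of the 6 comparisons, and their population means ranged by 1.25-fold, 1.11-fold and 1.76-fold. With library size alone Orc2 was called in 3 comparisons (0.46 for BSCs against non-basal, 0.56 for BSCs against alveolar and 0.37 for CD24hi against CD24lo cells) and Orc3 was called as higher in BSCs in both (0.38 and 0.36). Orc4 was called lower in CD24hi than in CD24lo cells by limma voom (-0.76, adjusted p = 0.0498) and without CD24hi replicate 3 (-0.80, adjusted p = 0.0365), Orc2 was called higher there without CD24hi replicate 1 (0.28, adjusted p = 0.0412), and both were called as higher in BSCs against alveolar cells with only the 6 libraries compared (0.21, adjusted p = 0.0361, and 0.23, adjusted p = 0.0146). With the length trend removed Orc3 was called lower in EpCAM-negative than in alveolar cells (-0.42, adjusted p = 0.00455). Orc4 was at 1.58, 5.83 and 6.10 RPKM in the CD24hi cells of mice 4, 5 and 6, with the library that stood apart far below the other pair. Orc5 was called once in the TMM fit of all libraries, lower in CD24hi than in CD24lo cells at -0.34, and this call was lost with library size alone (-0.051, adjusted p = 0.723), with only the 6 libraries compared (adjusted p = 0.112), without CD24hi replicate 1 (adjusted p = 0.0505) and without CD24lo replicate 2 (adjusted p = 0.0598). Alternatives also called Orc5 elsewhere. It was higher in BSCs than in non-basal cells with library size alone and with the length trend removed (0.31 to 0.38). Library size alone called it higher in BSCs than in alveolar cells (0.28). Calls below alveolar cells came in 3 alternatives for EpCAM-negative cells (-0.40 to -0.25) and 2 for non-basal cells (-0.29 to -0.24). With the length trend removed CD24lo cells were lower as well (-0.52). Exons on the other strand cover 10.8% of the exonic bases of Orc1 (Gm12743) and 29.8% of those of Orc2 (Nif3l1). Orc6, the smallest subunit, was at 11.3, 14.7 and 14.6 RPKM in CD24hi cells, at 10.5, 11.4 and 9.95 RPKM in BSCs and at 6.61, 6.43 and 5.61 RPKM in non-basal cells. The non-basal libraries were the lowest of all 18, and BSCs exceeded them by 0.77 ± 0.11 (adjusted p = 1.5e-05).

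CDC6 and CDT1 bring the helicase to the origin, and geminin (Gmnn; Entrez 57441, chr13:24751845-24761937, mm10) holds CDT1 back. The inhibitor varied most of all 43 members, by 37.3-fold between its highest and lowest population means. Gmnn was at 48.8, 51.2 and 65.6 RPKM in the 3 CD24lo libraries, at 20.0, 15.8 and 18.4 RPKM in non-basal cells and at 8.97, 6.22 and 6.59 RPKM in BSCs. In CD24hi cells it was at 9.19, 6.67 and 6.36 RPKM, in alveolar cells at 5.14, 5.93 and 5.48 RPKM and in EpCAM-negative cells at 1.40, 2.11 and 0.935 RPKM. The CD24lo libraries lay above all others, the non-basal libraries came next without overlap, and the EpCAM-negative libraries lay below all others, while BSC and CD24hi cells overlapped. CD24lo cells exceeded alveolar cells by 3.32 ± 0.21 (adjusted p = 4.16e-10), about 9.99-fold, and CD24hi cells by 7.43-fold (log2 -2.89 ± 0.20, adjusted p = 2.33e-09 for CD24hi against CD24lo). Non-basal cells exceeded BSCs by 2.49-fold (log2 -1.31 ± 0.18, adjusted p = 1.09e-05 for BSCs against non-basal).

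Cdt1 ran another course. It stood at 5.35, 3.67 and 3.36 RPKM in BSCs, 4.46, 4.16 and 5.21 RPKM in alveolar cells, 2.80, 2.16 and 2.39 RPKM in non-basal, 2.06, 2.24 and 2.36 RPKM in CD24lo and 1.58, 1.42 and 0.933 RPKM in CD24hi cells. BSC and alveolar libraries overlapped and lay above those of the other 3 populations named, and the BSC to alveolar difference of -0.16 ± 0.20 (adjusted p = 0.514) was not called. The ratio of Cdt1 to Gmnn in RPKM was 1.45 ± 0.323 (mean ± SD, n = 3) in EpCAM-negative, 0.840 ± 0.127 in alveolar, 0.566 ± 0.0479 in BSC, 0.177 ± 0.0333 in CD24hi, 0.136 ± 0.00515 in non-basal and 0.0407 ± 0.00410 in CD24lo cells. It is a ratio of RNA and not of the proteins, and the EpCAM-negative value rests on 17, 25 and 12 reads of Gmnn. Cdc6, the ATPase that works with the origin recognition complex in loading, was low everywhere, at 0.803, 1.14 and 1.12 RPKM in EpCAM-negative cells, 1.03, 0.852 and 0.691 RPKM in BSCs and 0.469, 0.333 and 0.429 RPKM in alveolar cells. The EpCAM-negative and BSC libraries overlapped, and both lay above the alveolar libraries, by 1.31 ± 0.26 (adjusted p = 0.000234) and 1.06 ± 0.25 (adjusted p = 0.00104).

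The 6 subunits of the MCM2-7 helicase unwind DNA as a ring with 1 copy of each. Their summed level was 64.1 ± 12.1 RPKM (mean ± SD, n = 3) in BSCs, 37.0 ± 1.42 in alveolar, 35.1 ± 3.81 in non-basal, 34.7 ± 1.47 in EpCAM-negative, 26.2 ± 0.0490 in CD24lo and 23.7 ± 1.64 RPKM in CD24hi cells. Mcm6 (Entrez 17219, chr1:128331575-128359705, mm10) was at 23.1, 17.9 and 16.5 RPKM in BSCs, 12.5, 10.1 and 9.80 RPKM in non-basal and 12.2, 11.9 and 10.6 RPKM in alveolar cells. The BSC libraries lay above all 15 others, by 0.83 ± 0.13 (adjusted p = 4.56e-05) against non-basal and 0.73 ± 0.13 (adjusted p = 0.000121) against alveolar cells. Mcm5 (Entrez 17218, chr8:75109468-75128439, mm10) was at 8.87, 6.63 and 5.73 RPKM in BSCs, 3.64, 3.10 and 3.25 RPKM in non-basal, 1.53, 1.81 and 2.12 RPKM in CD24lo and 0.728, 0.346 and 0.345 RPKM in CD24hi cells. Its CD24hi libraries were the lowest of the 18, with 33, 16 and 15 reads, and its population means ranged by 15.0-fold. Mcm3 was at 9.71, 6.68 and 6.17 RPKM in BSCs and 2.99, 3.03 and 2.69 RPKM in alveolar cells, apart by 1.37 ± 0.22 (adjusted p = 3.52e-05).

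The ratios between the RNA levels of the 6 subunit genes differed between populations. Protein was not measured, so these ratios do not give the make-up of the ring. In BSCs the highest subunit, Mcm6, was at 2.82 times the lowest, Mcm2. In CD24hi cells Mcm4 was at 15.2 times Mcm5, and in EpCAM-negative cells at 8.30 times Mcm5. Mcm4 alone of the 6 was not highest in BSCs by mean: it was at 11.8, 12.6 and 12.2 RPKM in EpCAM-negative cells and 13.0, 10.4 and 9.82 RPKM in BSCs, which overlapped, and at 6.14, 6.72 and 6.38 RPKM in alveolar cells. The EpCAM-negative cells exceeded the alveolar cells by 0.93 ± 0.11 (adjusted p = 6.1e-07), and BSCs did so by 0.79 ± 0.11 (adjusted p = 3.51e-06). Mcm2 went the other way in EpCAM-negative cells, at 2.14, 1.96 and 1.54 RPKM as against 4.05, 4.37 and 4.40 RPKM in alveolar cells, 2.27-fold lower. Mcm7, with 8.70% of its exonic bases shared with exons of other genes, was above non-basal cells by 0.79 and above alveolar cells by 0.46 (log2) in BSCs.

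**Figure D3:**
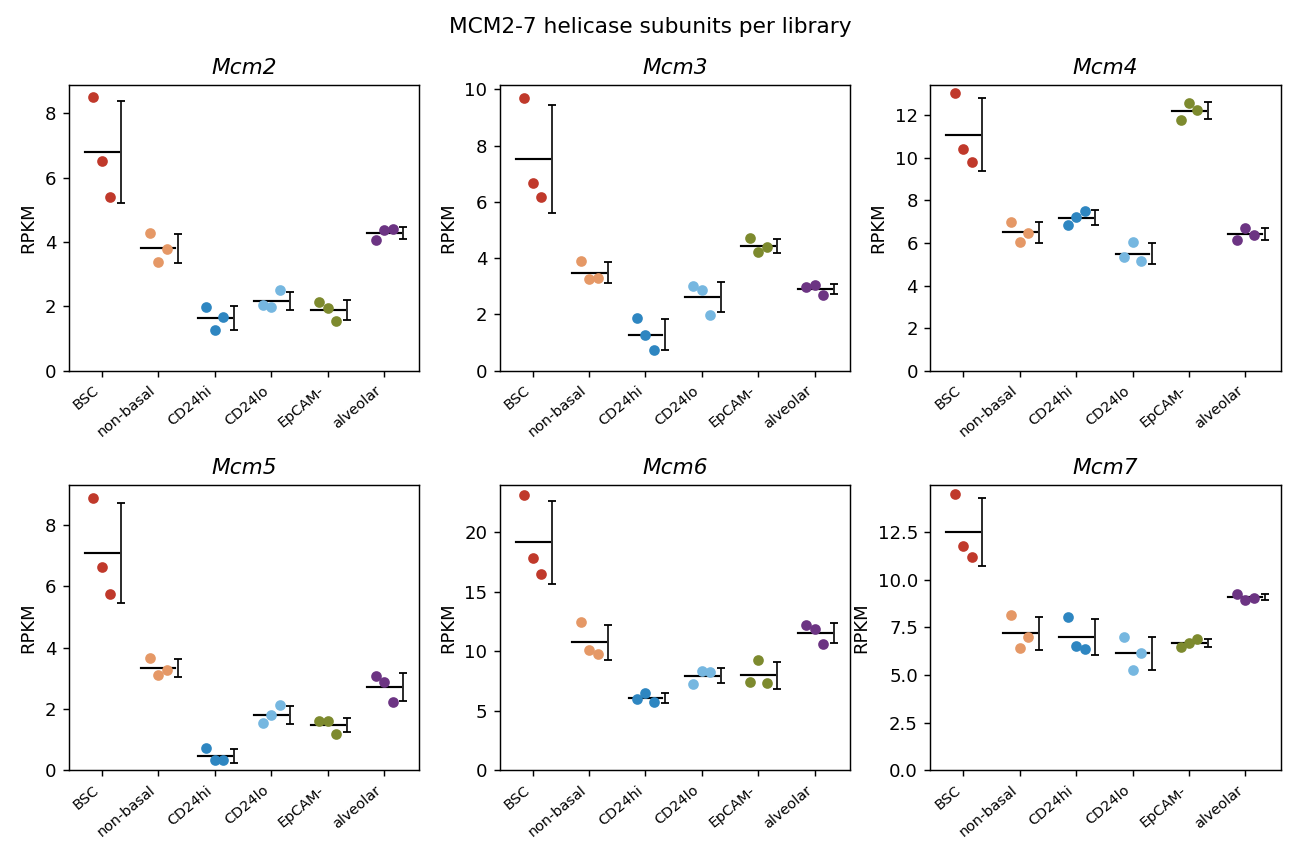
Each panel is 1 MCM2-7 subunit. Points are libraries (replicates 1 to 3 from left to right), lines are means and bars are ± SD (n = 3), in RPKM from 0. BSC points lie above those of the other populations for every subunit except Mcm4, where the EpCAM-negative points, 11.8 to 12.6 RPKM, overlap them, and Mcm5 in CD24hi cells lies at 0.345 to 0.728 RPKM.

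CDC45 and GINS turn the loaded ring into a working helicase, with MCM10 as the starter of unwinding. Cdc45 was at 3.00, 2.49 and 2.25 RPKM in BSCs, 1.22, 1.34 and 1.46 RPKM in non-basal, 1.27, 1.07 and 1.55 RPKM in alveolar and 2.15, 2.32 and 1.76 RPKM in CD24hi cells. BSC and CD24hi libraries overlapped and lay above the rest, with BSCs over alveolar cells by 0.99 ± 0.23 (adjusted p = 0.000988) and CD24hi over CD24lo cells by 1.11 ± 0.25 (adjusted p = 0.00125). Mcm10 was at 1.21, 1.55 and 1.18 RPKM in alveolar cells, 1.25, 1.22 and 0.962 RPKM in BSCs, 0.488, 0.704 and 0.559 RPKM in non-basal, 0.395, 0.422 and 0.231 RPKM in CD24lo and 0.161, 0.213 and 0.0872 RPKM in EpCAM-negative cells. Alveolar and BSC libraries overlapped and stood above the others, and EpCAM-negative cells were lower than alveolar cells by 8.56-fold (log2 -3.10 ± 0.40, adjusted p = 2.85e-06), from 7, 9 and 4 reads.

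The 4 GINS genes encode a complex with 1 copy of each subunit, but their RNA levels did not move together. The protein was not measured. Gins2 was at 4.38, 3.65 and 2.96 RPKM in BSCs and 3.12, 3.08 and 3.70 RPKM in non-basal cells, which overlapped, and at 0.594, 1.06 and 0.973 RPKM in alveolar cells. Both tracheal populations exceeded alveolar cells, by 2.06 ± 0.32 (adjusted p = 2.05e-05) and 1.91 ± 0.32 (adjusted p = 5.73e-05), from only 7, 12 and 10 reads in alveolar cells. Exons of Gse1 on the other strand cover 67.3% of its exonic bases, the strand setting of the counting is not given, and Gse1 itself was lower in BSCs at -0.50. The part of Gse1 reads in the Gins2 value was not tested. Gins4 (Entrez 109145, chr8:23226610-23237668, mm10) was at 29.0, 25.6 and 26.9 RPKM in CD24hi cells, 11.9, 8.78 and 9.28 RPKM in CD24lo and 11.8, 10.4 and 9.81 RPKM in BSCs. The CD24hi libraries lay above all 15 others, by 1.44 ± 0.12 (adjusted p = 2.38e-08) against CD24lo cells. In the same CD24hi cells Gins3 was at 0.469, 0.369 and 0.522 RPKM, lower than in CD24lo cells at -1.13 ± 0.28 (adjusted p = 0.00245), so that Gins4 was at 60.0 times Gins3 per length, as against 6.91 times in BSCs. Gins1, at 1.76, 1.50 and 1.65 RPKM in BSCs and 0.880, 0.514 and 0.926 RPKM in non-basal cells, did not overlap between them and differed by 1.07 ± 0.21 (adjusted p = 0.000463).

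Polymerase alpha and primase lay down the RNA and DNA primers. Prim1, the catalytic primase subunit, was at 10.9, 8.35 and 8.55 RPKM in BSCs, 4.42, 3.51 and 4.48 RPKM in non-basal, 4.71, 3.78 and 4.02 RPKM in alveolar and 1.92, 1.84 and 1.85 RPKM in CD24hi cells. The BSC libraries stood above all others and the CD24hi libraries below all others, with BSCs over non-basal cells by 1.16 ± 0.18 (adjusted p = 3.33e-05). Pola1, the catalytic polymerase alpha subunit, stepped down in 3 levels, at 4.93, 3.91 and 4.05 RPKM in BSCs, 3.08, 3.06 and 2.95 RPKM in non-basal and 1.38, 1.58 and 1.43 RPKM in alveolar cells. No library of one of these 3 populations overlapped another, and the steps were 0.50 ± 0.12 (adjusted p = 0.00271) and 1.05 ± 0.14 (adjusted p = 3.41e-06). For Prim2 and Pola2, the regulatory subunits, BSCs were above non-basal cells by 0.58 and 0.67 and above alveolar cells by 0.60 and 0.66.

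Polymerase epsilon copies the leading strand, and its catalytic subunit gave the largest BSC to alveolar difference of the 43 members. Pole (Entrez 18973, chr5:110286319-110337468, mm10) was at 1.74, 1.36 and 1.32 RPKM in BSCs, 0.836, 0.704 and 0.799 RPKM in non-basal and 0.173, 0.323 and 0.255 RPKM in alveolar cells, from 435, 352 and 333 reads in BSCs and 14, 25 and 18 in alveolar cells. The 3 populations did not overlap, and BSCs exceeded alveolar cells by 5.89-fold (log2 2.56 ± 0.31, adjusted p = 1.28e-06). Pole2, its second subunit, was at 4.28, 3.34 and 3.58 RPKM in BSCs, 2.32, 3.07 and 3.10 RPKM in EpCAM-negative, 1.31, 1.37 and 1.44 RPKM in non-basal and 1.20, 0.869 and 0.834 RPKM in alveolar cells. BSCs exceeded non-basal cells by 1.44 ± 0.19 (adjusted p = 4.93e-06), and EpCAM-negative exceeded alveolar cells by 1.54 ± 0.23 (adjusted p = 1.32e-05), each without overlap. The polymerase delta pair of the lagging strand did not share this pattern: Pold1 was at 6.93, 5.66 and 5.23 RPKM in BSCs and 5.35, 5.32 and 5.93 RPKM in alveolar cells (0.10 ± 0.14, adjusted p = 0.548), and Pold2 at 13.3, 11.8 and 10.4 RPKM and 15.7, 13.5 and 15.2 RPKM (-0.32 ± 0.15, adjusted p = 0.0741). Neither was called in the TMM fit of all libraries, but the call depended on the setting. Pold2 was called lower by limma voom (-0.32, adjusted p = 0.0371), with thinned tracheal counts (-0.45, adjusted p = 0.0231), with only the 6 libraries compared (-0.26, adjusted p = 0.0435), with a block on the replicate number, which joins different mice by number only (-0.32, adjusted p = 0.0303), without BSC replicate 1 (-0.41, adjusted p = 0.044) and without the 5 libraries that stood apart (-0.47, adjusted p = 0.000854), and Pold1 was called higher with library size alone (0.51, adjusted p = 0.00701). Pold1 was higher in BSCs than in non-basal cells by 0.81.

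The sliding clamp gene Pcna was the most abundant member in 4 of the 6 populations and varied little. It was at 46.4, 52.9 and 50.8 RPKM in alveolar cells, 42.2, 46.3 and 46.4 RPKM in BSCs, 32.7, 34.8 and 34.2 RPKM in non-basal and 28.4, 31.0 and 30.0 RPKM in CD24hi cells. The BSC libraries lay just under the alveolar ones, at -0.15 ± 0.10 (adjusted p = 0.173), which was not called, and the whole range of population means was 1.68-fold. With library size alone as the scaling Pcna was called higher in BSCs than in alveolar cells, by 0.25 (adjusted p = 0.0167). Of the clamp loader subunits, Rfc1, the large one, was at 14.3, 12.5 and 12.9 RPKM in BSCs and 8.98, 8.60 and 8.28 RPKM in alveolar cells, without overlap and apart by 0.62 ± 0.08 (adjusted p = 1.3e-06). Rfc3 was at 13.2, 12.9 and 12.2 RPKM in BSCs, 8.41, 9.32 and 9.06 RPKM in alveolar and 4.43, 4.21 and 4.14 RPKM in EpCAM-negative cells, which were lower than alveolar cells by 2.09-fold. Rfc4 and Rfc5 were higher in BSCs than in non-basal cells by 0.68 and 0.74, and only Rfc5 of the pair was called against alveolar cells (0.50). Rfc4 was called there as well with library size alone and with the length trend removed (0.51 to 0.54, adjusted p = 0.0155 to 0.0157).

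Rfc2 (Entrez 19718, chr5:134582690-134598328, mm10), a small subunit of the clamp loader, was at 114, 99.1 and 89.1 RPKM in CD24hi cells, above every other member in that population. It was at 29.4, 21.2 and 14.0 RPKM in CD24lo cells, 21.7, 20.0 and 19.3 RPKM in BSCs, 22.1, 20.9 and 20.9 RPKM in alveolar and 11.8, 12.8 and 10.7 RPKM in EpCAM-negative cells. The 3 CD24hi libraries lay far above all 15 others, and CD24hi exceeded CD24lo cells by 4.65-fold (log2 2.22 ± 0.18, adjusted p = 1.16e-08). Its partner Rfc4 was at 2.67, 2.99 and 2.72 RPKM in CD24hi cells, so that Rfc2 stood at 36.1 times Rfc4 there and at 4.12 times in BSCs. Exons of Lat2 on the other strand overlap 15.1% of the 6303 exonic bases of Rfc2 in GENCODE vM21. The length used for counting was 1518 bases, and the share overlapped there was not measured. Lat2 was at a mean of 1.21 RPKM in CD24hi and 1.61 RPKM in CD24lo cells.

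RPA covers the single strands that the helicase lays bare, and none of its 3 subunits was called between BSCs and non-basal cells in the TMM fit of all libraries. Rpa3, the smallest, was at 16.1, 24.7 and 26.8 RPKM in CD24hi, 15.2, 14.3 and 14.3 RPKM in CD24lo, 11.3, 11.5 and 11.6 RPKM in alveolar cells and 9.45, 7.32 and 6.99 RPKM in BSCs. CD24hi libraries were the highest and BSC libraries lay below the alveolar ones, with the BSC to alveolar difference at -0.53 ± 0.18 (adjusted p = 0.0139). With the trend on gene length removed this difference was 0.06 (adjusted p = 0.826), so its direction hangs on that setting. The call was also lost with library size alone (-0.13, adjusted p = 0.561) and without BSC replicate 3 (-0.45, adjusted p = 0.0576). Rpa1, which carries the main DNA-binding domains, was at 14.7, 14.4 and 16.5 RPKM in CD24hi and 10.5, 9.86 and 10.8 RPKM in CD24lo cells, without overlap and apart by 0.54 ± 0.09 (adjusted p = 6.42e-05). Rpa2 was at 7.71, 7.69 and 7.91 RPKM in EpCAM-negative and 7.71, 5.94 and 5.42 RPKM in BSCs, which touched, and was called in neither BSC comparison (0.36 and -0.15). The lack of a call against non-basal cells hung on the setting. In 7 of the 17 alternatives Rpa2 was called as higher in BSCs, at 0.34 to 0.71 (adjusted p = 0.000902 to 0.0425): with library size alone, limma voom, the length trend removed, the mouse as a block, without BSC replicate 3, without non-basal replicate 1 and without the 5 libraries that stood apart. Rpa1 was called so with library size alone (0.39, adjusted p = 0.00171).

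**Figure D4:**
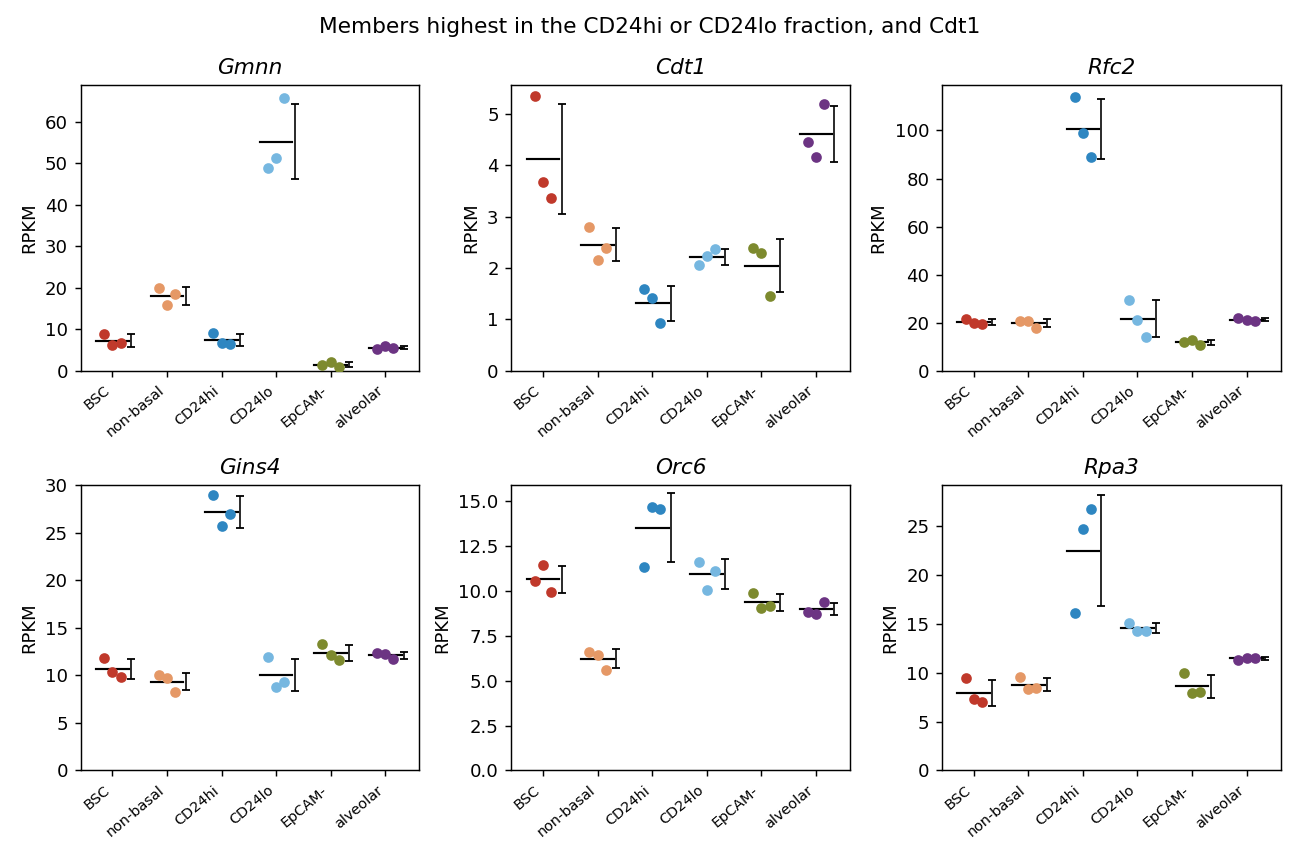
Each panel is 1 member that departed from the common pattern. Points are libraries, lines are means and bars are ± SD (n = 3), in RPKM from 0. Gmnn is highest in CD24lo cells (48.8 to 65.6 RPKM), Rfc2 (89.1 to 114 RPKM) and Gins4 (25.6 to 29.0 RPKM) are highest in CD24hi cells without overlap, and Cdt1 is highest in alveolar cells and BSCs, which overlap.

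FEN1 trims the flaps of the lagging strand and ligase I (Lig1) seals the nicks. Lig1 was at 7.51, 6.33 and 5.90 RPKM in BSCs, 6.21, 5.88 and 6.24 RPKM in non-basal, 4.11, 4.23 and 4.13 RPKM in alveolar and 2.32, 1.87 and 2.30 RPKM in CD24hi cells. The tracheal populations overlapped and lay above alveolar cells, by 0.66 ± 0.12 (adjusted p = 0.000152) and 0.56 ± 0.12 (adjusted p = 0.000849), and CD24hi cells lay below all. Fen1 was higher in BSCs than in alveolar cells by 0.80 ± 0.15 (adjusted p = 0.000156), but 84.2% of its exonic bases lie under exons of Tmem258 and Gm10143 on the other strand. Tmem258 was lower in BSCs at -0.76, and the part of its reads in the Fen1 value was not tested.

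Ribonucleotide reductase makes deoxynucleotides from its large subunit, Rrm1, and a small subunit, Rrm2, that is degraded outside S phase. Rrm1 was at 16.7, 14.3 and 14.6 RPKM in BSCs, 10.4, 8.80 and 10.0 RPKM in non-basal, 7.12, 7.74 and 7.12 RPKM in alveolar, 5.80, 6.39 and 6.39 RPKM in CD24lo and 3.64, 3.76 and 4.15 RPKM in CD24hi cells. These 5 populations did not overlap one another, and BSCs exceeded alveolar cells by 1.05 ± 0.09 (adjusted p = 1.75e-08). EpCAM-negative cells, at 9.76, 9.67 and 8.67 RPKM, overlapped the non-basal cells. Rrm2 was at 6.21, 4.49 and 3.99 RPKM in BSCs, 2.53, 2.48 and 2.26 RPKM in non-basal and 0.970, 1.82 and 0.972 RPKM in alveolar cells, with alveolar replicate 2 above the other pair. BSCs exceeded alveolar cells by 1.96 ± 0.27 (adjusted p = 5.52e-06). Tyms, the thymidylate synthase that makes dTMP, did not follow: it was at 2.96, 2.46 and 1.95 RPKM in BSCs and 2.41, 2.46 and 2.92 RPKM in alveolar cells, which overlapped (-0.08 ± 0.15, adjusted p = 0.67), and was lower in CD24hi than in CD24lo cells at -0.85 ± 0.18 (adjusted p = 0.00057). Pcna and Tyms have named pseudogene copies, and how reads shared with them were counted is not given in the sources used here.

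Set against each other, non-basal and alveolar cells were split. Of the 43 members, 10 were higher in non-basal cells (background 31.6%), 11 were lower (background 32.5%) and 22 were not called, with a median log2 fold change of -0.01, as over all genes. Pole, Gins2, Pola1, Rrm2 and Gmnn were among the higher and Mcm10 (-1.17), Cdt1 (-0.91) and Pold1 (-0.71) among the lower. Of the MCM2-7 subunits, 5 were not called and Mcm7 was lower at -0.34 ± 0.13 (adjusted p = 0.0316). That call was lost with library size alone (adjusted p = 0.0934), with no filter (adjusted p = 0.0503) and on leaving out any of 5 of the 6 libraries compared (adjusted p = 0.0568 to 0.129; all but non-basal replicate 1). Gins1 and Fen1 lost their calls in 6 alternatives each, Rpa1 in 3 and Gins4 and Rpa2 in 2 each, and in all 5 members at least 1 of these left out a single library. In non-basal and alveolar cells, in that order, 5 basal markers were at 1145 to 1523 and 0.662 to 2.28 RPKM. The 3 club markers were at 82843 to 92023 and 3844 to 4894 RPKM. The 4 ciliated markers were at 63.4 to 97.5 and 6.49 to 10.1 RPKM. The 3 endothelial markers were at 0.205 to 0.511 and 26.0 to 51.8 RPKM. The 3 smooth muscle markers were at 3.01 to 3.67 and 41.6 to 64.8 RPKM. The part of these cells in the members' levels was not tested.

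Between the airway fractions of the lung, 8 members were higher in CD24hi cells (background 27.8%), 18 were lower (background 27.2%) and 17 were not called, with a median log2 fold change of -0.31 as against -0.06 over all genes. The 8 higher were Rfc2, Gins4, Cdc45, Rpa3, Rpa1, Rfc5, Mcm4 and Orc6. The 18 lower took in 6 of the 8 primase and polymerase subunits and, at the extremes, Gmnn (-2.89) and Mcm5 (-1.93 ± 0.28, adjusted p = 1.23e-05). With library size alone as the scaling, which moved the median of all genes to 0.21, the split was 11 higher and 10 lower. A fit of these 6 libraries alone called 4 higher and 11 lower, and without CD24lo replicate 2 there were 7 higher and 11 lower. Orc6 lost its call in 7 alternatives (adjusted p = 0.052 to 0.196), of which 4 left out 1 library: CD24hi replicate 2 or 3 or CD24lo replicate 2 or 3. Of the lower members, Pcna lost its call in 12 alternatives, Rpa2 in 9, Mcm6 in 8, Pola2 in 6, Pole in 5, Orc5 and Cdt1 in 4 each and Prim2 in 3, and of the higher ones Rfc5 did so in 2 and Mcm4 and Rpa3 in 1. Mcm10 was called lower as well in 5 alternatives (adjusted p = 0.00105 to 0.0428), among which were the mouse as a block (-1.12, adjusted p = 0.0358) and those without CD24hi replicate 2 and without CD24lo replicate 3. Without the libraries that stood apart Mcm2 was called lower (-0.61, adjusted p = 0.0255), as it was without CD24hi replicate 1 alone (-0.57, adjusted p = 0.0412), and Rfc5 lost its call (adjusted p = 0.103). Marker lists of other cells moved between the same gates. The 5 basal markers were at 13.0 to 15.4 RPKM in CD24hi and 114 to 191 RPKM in CD24lo cells. The 4 fibroblast markers were at 26.3 to 43.02 and 130 to 153 RPKM, 3 smooth muscle markers at 16.9 to 42.9 and 68.5 to 142 RPKM, and 4 alveolar type 2 markers at 1068 to 2146 and 4016 to 6921 RPKM. Their part in the members' levels was not tested.

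Between CD24lo and alveolar cells the fewest members were called: 1 member, Gmnn, was higher in CD24lo cells (background 24.2%), 12 were lower (background 24.2%) and 30 were not called. The lower ones included Mcm10 (-1.89 ± 0.37, adjusted p = 0.000345), Cdt1 (-1.05 ± 0.23, adjusted p = 0.001) and 4 MCM2-7 subunits, of which Mcm2 was lowest (-0.98). Removing the trend on gene length, after which the median of all genes was -0.24 and that of the members -0.47, gave 1 higher and 21 lower. Some alternatives gave 2 higher. Orc6 was the added one with CPM above 1, with only the 6 libraries compared and without CD24lo replicate 2. Its difference there was 0.29 to 0.36 (adjusted p = 0.0349 to 0.0489). Without the 5 libraries that stood apart Pole was the added one (0.99, adjusted p = 0.0357). Gins4 was called lower in 4 alternatives (adjusted p = 6.43e-05 to 0.0374), among which were the mouse as a block (-0.28, adjusted p = 0.0374) and that without CD24lo replicate 1, and 3 calls of lower members were lost under some of the 17 alternatives. Rrm1 lost its call in 14 of them (adjusted p = 0.0634 to 0.208), among which were those without any 1 of the 6 libraries compared. Mcm5 lost it in 8 (adjusted p = 0.055 to 0.147), 4 of which left out CD24lo replicate 1 or 2 or alveolar replicate 1 or 2, and Tyms in 3 (adjusted p = 0.0598 to 0.0646), among which were those without CD24lo replicate 1 and without alveolar replicate 3. In alveolar cells the 5 basal markers were at 0.662 to 2.28 RPKM, as against 114 to 191 RPKM in CD24lo cells. The 3 endothelial markers were at 26.0 to 51.8 and 82.1 to 165 RPKM and the 3 smooth muscle markers at 41.6 to 64.8 and 68.5 to 142 RPKM in the same order, and the part of these cells in the members' levels was not tested. By the study's methods alveolar cells were gated as CD31 negative, and the endothelial markers were still measured in them at the level given.

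The non-epithelial cells set against alveolar cells gave 10 members higher in EpCAM-negative cells (background 32.7%), 14 lower (background 29.2%) and 19 not called, with a median of -0.10 as against 0.01 over all genes. Pole2, Cdc6, Mcm4, Pola1 and Mcm3 led the higher members, and 4 of the 8 primase and polymerase subunits were among them. Mcm10, Gmnn, Mcm2, Cdt1 and Rfc3 led the lower members, with 4 of 6 MCM2-7 and 5 of 6 clamp and clamp loader subunits. With the trend on gene length removed, which moved the median of all genes to -0.21, the split was 3 higher and 19 lower. Without alveolar replicate 3 there were 6 higher and 14 lower, and without EpCAM-negative replicate 1 there were 7 and 15. The 3 smooth muscle markers were at 1456 to 1551 RPKM in EpCAM-negative and 41.6 to 64.8 RPKM in alveolar cells, and 3 erythroid markers were at 33.9 to 284 and 1.24 to 3.29 RPKM. The part of these and of the fibroblast and endothelial cells in the members' levels was not tested. Alveolar cells, gated as CD31 negative by the study's methods, held the 3 endothelial markers at 26.0 to 51.8 RPKM. Mcm3 was not called by limma voom (adjusted p = 0.0538), with the length trend removed (adjusted p = 0.263) or without any of 5 libraries, all but EpCAM-negative replicate 2 (adjusted p = 0.0547 to 0.104). Pola2 lost its call in 5 alternatives (adjusted p = 0.066 to 0.495), 4 of which left out 1 library, and Prim2 and Rfc1 in 3 each, while Mcm7, Pola1, Rfc5, Rpa1, Fen1 and Rrm1 did so in 1, a change of scaling or of the length trend.

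Across the 18 libraries, Pearson's r between a member and the mean of the other 42, on log2(RPKM + 0.1), ranged from 0.97 for Mcm6, 0.92 for Mcm5 and 0.91 for Mcm2 down to -0.49 for Rfc2, -0.59 for Gins4 and -0.70 for Rpa3. The 18 points fall into 6 populations that share mice within an organ, so these values describe the populations more than independent samples.

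Another 50 genes of the replication pathway were listed beside the members. In BSCs against non-basal cells 28 of the 50 were higher and 3 lower, beside 21.9% and 26.2% of all genes, and against alveolar cells 32 were higher and 8 lower, beside 30.5% and 35.6%. The initiation factor Ticrr was higher in BSCs by 1.44 ± 0.22 (adjusted p = 4.05e-05) and 4.09 ± 0.34 (adjusted p = 9.93e-09), and Cdc7, the kinase that fires origins, by 1.42 and 2.88. Of the 4 fork protection genes, 4 were higher in BSCs than in non-basal cells and 2, Clspn and Wdhd1, were called against alveolar cells. Clspn, the checkpoint adaptor claspin, differed by 1.31 and 3.18. E2f8, a repressor of the E2F family, was higher in BSCs than in alveolar cells by 3.73 ± 0.39 (adjusted p = 1.92e-07). Ticrr and E2f8 were near the floor in alveolar cells, at means of 0.0383 and 0.135 RPKM.

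E2f2, an activating E2F, was among the lowest of the pathway genes in BSCs against alveolar cells. It was at 11.3, 10.6 and 12.5 RPKM in alveolar cells, 5.73, 7.56 and 6.90 RPKM in CD24lo cells, 1.37, 1.05 and 0.918 RPKM in BSCs and 0.525, 0.453 and 0.370 RPKM in EpCAM-negative cells. Alveolar libraries lay above all others and EpCAM-negative libraries below all others, and BSCs were lower than alveolar cells by 10.3-fold (log2 -3.36 ± 0.15, adjusted p = 2.5e-12). Rnaseh2c, a subunit of the enzyme that removes RNA from DNA, was the other gene of the list to lie furthest down in BSCs, at -0.50 against non-basal and -1.32 against alveolar cells. E2f7, also a repressor, was higher in non-basal and CD24lo cells than in alveolar cells by 3.62 ± 0.37 (adjusted p = 1.69e-07) and 3.07 ± 0.41 (adjusted p = 6.06e-06). In non-basal cells the initiation factor Donson was lower than in alveolar cells at -1.07.

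In CD24hi against CD24lo cells, 11 of the 50 pathway genes were higher and 18 lower, beside 27.8% and 27.2% of all genes. Dna2, a nuclease and helicase of flap removal, was at 8.24, 10.8 and 10.2 RPKM in CD24hi, 2.61, 1.36 and 0.977 RPKM in CD24lo cells and 0.994, 0.556 and 0.548 RPKM in BSCs, above all in CD24hi cells by 2.54 ± 0.30 (adjusted p = 1.13e-06). Chaf1a, the large subunit of the chromatin assembly factor that follows the fork, was at 10.7, 10.2 and 8.68 RPKM in CD24hi and 2.53, 1.87 and 2.09 RPKM in CD24lo cells (2.18 ± 0.17, adjusted p = 9.91e-09). For both genes the 3 CD24hi libraries lay above all 15 others, as for Rfc2 and Gins4, while E2f3 (-1.56) and the kinase gene Dck of nucleotide salvage (-1.68) were lowest. For CD24lo against alveolar cells the counts were 10 higher and 6 lower of 50, beside 24.2% of all genes each way, with Tk1 (-1.64) and Chaf1b (-1.13) lowest and Dna2 (1.64) among the highest. For EpCAM-negative against alveolar cells they were 9 and 18 (all genes 32.7% and 29.2%), with Cdc7 (3.17) and E2f1 (2.14) highest and E2f2 (-4.67) and Chaf1b (-3.21) lowest. For non-basal against alveolar cells they were 21 and 10 (all genes 31.6% and 32.5%).

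The 11 cell cycle genes listed were Mki67, Ccna2, Ccnb1, Cdk1, Ccne1, Ccne2, Cdk2, Ccnd1, Ccnd2 and the inhibitors Cdkn1a and Cdkn1b. Counts over them thus pool inhibitors with the other genes. Of the 11, 8 were higher in BSCs than in non-basal cells and 0 lower, beside 21.9% and 26.2% of all genes. With alveolar cells as the reference 7 were higher and 3 (Cdk2, Cdkn1a and Cdkn1b) lower, beside 30.5% and 35.6%. Mki67, the proliferation marker, was at 14.1, 12.2 and 12.7 RPKM in BSCs, 4.31, 4.34 and 4.36 RPKM in non-basal, 0.735, 1.64 and 0.761 RPKM in alveolar and 0.210, 0.551 and 0.226 RPKM in CD24hi cells. The BSC libraries lay above all others and the non-basal libraries came next, with differences of 1.58 ± 0.28 (adjusted p = 0.00016) and 3.63 ± 0.32 (adjusted p = 2.08e-08) for BSCs over non-basal and alveolar cells. Ccna2, the cyclin of S phase and G2, was higher in BSCs by 1.33 and 2.76, and Cdk1, the mitotic kinase, by 0.71 and 2.85. These differences from alveolar cells exceeded those of all 43 members, the largest of which was 2.56 for Pole. In BSCs the mouse 1 library, highest for 40 members, was also highest for Mki67, Ccna2 and Cdk1. Cdkn1a, the inhibitor of cyclin-dependent kinases p21, was at 145, 124 and 123 RPKM in CD24hi and 53.5, 39.1 and 31.9 RPKM in CD24lo cells (1.66 ± 0.16, adjusted p = 9.04e-08). These libraries do not measure the share of dividing cells, and its part in the members' levels was not tested.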

How the data were processed

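RNA from FACS-sorted cells was extracted with a micro column kit, sequenced on an Illumina instrument, demultiplexed with bcl2fastq 1.8.4, aligned to mm10 with Rsubread and assigned to genes with featureCounts and its in-built RefSeq annotation by the authors, who deposited raw counts per gene and library. Their strand setting is not given in the sources used here. The table of the whole series and the files of single libraries differed in 0 values, and 0 rows named no gene.

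The deposited counts were analysed with edgeR 4.0.16 (R 4.3.3). Genes above 0.2 CPM in at least 3 libraries were kept, libraries were scaled by TMM, and 1 quasi-likelihood model of the 18 libraries was fitted, with Benjamini-Hochberg adjustment over 17989 genes and a call at an adjusted p under 0.05. RPKM used the gene lengths in the files and the TMM-scaled library sizes. Depth was 9811503 to 13208897 counts in lung and 29317215 to 32993621 in tracheal libraries, so that genes with few reads were measured less precisely in the lung. Populations came from the labels, which name the mouse: 3 mice gave both tracheal and 3 others all 4 lung populations, so same-mouse libraries are paired by animal. Deviations from the population means of same-numbered libraries correlated at 0.336, 0.117 and 0.218 for BSC and non-basal cells, 0.278, 0.0439 and 0.175 for CD24hi and CD24lo cells, 0.0333, -0.0592 and 0.068 for CD24lo and alveolar cells, and -0.0362, 0.0931 and 0.0077 for EpCAM-negative and alveolar cells.

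The 43 members and all lists were chosen with earlier results of these data known. Values by library were given for at least 1 member of each role and, for both populations of each comparison, for the 2 highest and 2 lowest called members with a mean of at least 1 CPM. They were printed for the populations set side by side and, Gmnn apart, seldom for all 18 libraries. The pathway genes named include, by the same minimum, the 2 highest and 2 lowest called in each comparison. Clspn and Wdhd1, and which of the 11 listed cell cycle genes are named, were chosen after their values were seen. Alternatives were RLE size factors, library size alone, CPM above 1, no filter, limma voom (limma 3.58.1), DESeq2 1.42.0, a gene length offset, tracheal counts thinned to 11971725, only the 6 libraries compared, a replicate block and leaving out each library, and, chosen after seeing the data, leaving out the 5 libraries that stood apart. Over all genes, chi-square per degree of freedom between replicates was 21.1 to 39.6 for pairs with such a library and 3.5 to 7.5 for others. The script was tested on simulated data. Exon overlaps came from GENCODE vM21, over the exons of all transcripts of a gene, and are not shares of the lengths used for counting. Promoter windows came from RefSeq GRCm38.p6. The promoters printed are the first 6, in order, of a list of 8 members. Orc4 and Rfc1, the other two, were not printed.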

Additional observations from a re-analysis of the deposited data

How the results depend on the processing

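The direction of the members' median relative to all genes held under every alternative for BSCs against non-basal cells (0.56 to 0.70 above all genes on the log2 scale) and against alveolar cells (0.53 to 0.70). Of the members called, 26 of the 28 higher in BSCs than in non-basal cells (all but Cdc6 and Fen1) and 24 of the 25 above alveolar cells (all but Gins3) were called in every alternative. This held for 15 of 21 calls for non-basal against alveolar, 14 of 26 for CD24hi against CD24lo, 10 of 13 for CD24lo against alveolar and 14 of 24 for EpCAM-negative against alveolar cells. Leaving out 1 library at a time gave 27 to 30 members called for BSCs against non-basal, 25 to 27 for BSCs against alveolar, 17 to 20 for non-basal against alveolar, 18 to 25 for CD24hi against CD24lo, 11 to 12 for CD24lo against alveolar and 20 to 23 for EpCAM-negative against alveolar cells, and 12 to 15 members standing highest in BSCs, 3 to 5 in CD24hi cells and 0 to 1 in EpCAM-negative cells (Mcm4, without BSC replicate 1). The replicate block, with the mouse as a term or, for both tracheal populations against alveolar cells, a number that joins different mice and so pairs nothing, gave 30, 27, 21, 27, 14 and 24 members called in the same order and added calls for Rpa2 (BSCs against non-basal, 0.35), Pold2 (BSCs against alveolar, -0.32), Mcm10 (CD24hi against CD24lo, -1.12) and Gins4 (CD24lo against alveolar cells, -0.28), with no other call of a member changed. Fitting only the 6 libraries compared gave 15 for CD24hi against CD24lo cells in place of 26. With library size alone, 25 members stood highest in BSCs and 3 in CD24hi cells, the median RPKM of the members was 7.97 in BSCs, 3.13 in CD24hi, 3.74 in CD24lo and 4.33 in alveolar cells, and of the values called under TMM or this scaling these turned direction, beside 24 called under neither: Orc3 (0.36), Orc5 (0.28) and Pcna (0.25) for BSCs against alveolar cells, and Pcna (0.046) for CD24hi against CD24lo cells. The gene length offset gave 22 members called for CD24lo against alveolar cells, 24 standing highest in BSCs and 3 in CD24hi cells, and turned, beside 26 values called in neither fit, Rpa3 for BSCs against alveolar cells (0.057), Rfc2 for CD24lo against alveolar cells (-0.37) and Orc3 (-0.42), Rfc1 (-0.18) and Rrm1 (-0.024) for EpCAM-negative against alveolar cells; the cause was not tested. Leaving out the 5 libraries that stood apart put 1 member highest in EpCAM-negative (Mcm4) and 1 in alveolar cells (Cdt1). Depth limits genes with few reads in the lung, among them Orc1, Mcm10 and Pole, with 2 to 7 reads of Orc1 in alveolar cells. Gins2 had 7, 12 and 10 reads in alveolar cells, and Gmnn had 17, 25 and 12 in EpCAM-negative cells. Among pathway genes with large differences, Ticrr, E2f7 and E2f8 were at means of 0.0383, 0.0855 and 0.135 RPKM in alveolar cells.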
